A study of Mus musculus with 6 samples.

Results

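The 6 gastrocnemius libraries of this study were divided by the beta-globin gene to which their reads were assigned rather than by genotype. The Hbb-bt-rich set held the 3 libraries with more *Hbb-bt* than *Hbb-b2* counts (WT 1, WT 2 and KO 2), and the Hbb-b2-rich set held the 3 with the reverse (WT 3, KO 1 and KO 3). The members were therefore chosen by measured globin counts, and the split was proposed because slow-fiber genes were seen to follow it. Across the WT and KO labels, the Hbb-bt-rich libraries had more transcript of nearly the whole slow sarcomere, of myoglobin, of *Ldhb* and of the nuclear receptor gene *Esrrg*, and less of *Exoc7*, *Fgfr1* and *Wnt4*. Outside the slow sarcomere, *Esrrg* alone of these genes passed the test with any 1 library left out.

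The RNA came from gastrocnemius muscle of C57BL/6 mice at 20 weeks of age, 1 library per animal. The methods describe the animals as male. Libraries labelled WT came from *Sirt6 flox/flox* mice, and libraries labelled KO from *Myl1-Cre; Sirt6 flox/flox* mice, so that both groups carried the floxed allele and KO mice also the Cre driver. *Myl1-Cre* uses the myosin light chain 1 promoter, which works mainly in type II fibers, so slow fibers and the other cells of the muscle may keep the gene. *Sirt6* went against the direction of a knockout, with the KO libraries higher: it stood at 2.77, 2.23 and 2.88 CPM (counts scaled to library size) in WT 1 to 3 and at 7.81, 7.44 and 6.68 CPM in KO 1 to 3. The KO minus WT log2 difference was 1.45 in the fit with label and split (edgeR quasi-likelihood test, adjusted p = 0.00853), so WT and KO name the labels only. The paper reports by Western blot that Sirt6 protein was lost in KO skeletal muscle. The counts here are RNA per gene and measure neither protein nor single exons. The split did not separate *Sirt6*, whose log2 difference was −0.08 (SE 0.18).

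Skeletal muscle mixes slow (type I) and fast (type II) fibers, which are built from different genes for the same parts of the sarcomere. Slow fibers use beta myosin (*Myh7*) and slow troponins, are rich in myoglobin and mitochondria, and burn fat and lactate. Fast fibers use *Myh2*, *Myh1* or *Myh4*, and the *Myh4* type relies most on glycolysis. Adult mouse beta globin comes from a pair of adjacent genes: C57BL mice carry *Hbb-bs* and *Hbb-bt*, whereas strains such as 129 and BALB/c carry *Hbb-b1* and *Hbb-b2*. These genes are nearly identical in sequence, so the assignment of reads among them is uncertain.

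The promoters of the 4 slow-fiber genes that mark the split are shown because the description of the sets turns on these genes. Each window, from RefSeq on GRCm38.p6, runs from 250 bases before to 50 bases after the annotated start, 5′ to 3′ on the gene's own strand. Where a gene had more than 1 window the first listed is given. Capitals mark E-boxes (CANNTG, the same on both strands), the letters bound by MyoD-type factors. *Myh7* lies at chr14:54994577-54994876 (minus strand), *Tnnt1* at chr7:4515926-4516225 (minus), *Tnni1* at chr1:135799171-135799470 (plus) and *Tnnc1* at chr14:31208062-31208361 (plus).
Myh7: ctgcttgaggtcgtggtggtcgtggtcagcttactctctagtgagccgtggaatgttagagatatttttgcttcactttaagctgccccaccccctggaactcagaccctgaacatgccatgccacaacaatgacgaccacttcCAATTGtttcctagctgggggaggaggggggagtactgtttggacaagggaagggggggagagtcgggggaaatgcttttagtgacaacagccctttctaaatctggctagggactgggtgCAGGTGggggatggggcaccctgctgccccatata
Tnnt1: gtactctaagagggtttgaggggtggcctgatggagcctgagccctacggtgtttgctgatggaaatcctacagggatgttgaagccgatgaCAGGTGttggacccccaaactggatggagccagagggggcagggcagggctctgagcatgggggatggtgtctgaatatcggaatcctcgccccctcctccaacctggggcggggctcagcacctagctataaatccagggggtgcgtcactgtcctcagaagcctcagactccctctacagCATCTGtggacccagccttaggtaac
Tnni1: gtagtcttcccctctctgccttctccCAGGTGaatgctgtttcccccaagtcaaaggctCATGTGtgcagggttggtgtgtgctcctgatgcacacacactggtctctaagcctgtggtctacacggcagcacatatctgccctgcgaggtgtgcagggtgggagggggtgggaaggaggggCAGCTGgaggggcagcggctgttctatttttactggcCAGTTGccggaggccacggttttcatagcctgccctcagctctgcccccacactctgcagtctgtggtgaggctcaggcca
Tnnc1: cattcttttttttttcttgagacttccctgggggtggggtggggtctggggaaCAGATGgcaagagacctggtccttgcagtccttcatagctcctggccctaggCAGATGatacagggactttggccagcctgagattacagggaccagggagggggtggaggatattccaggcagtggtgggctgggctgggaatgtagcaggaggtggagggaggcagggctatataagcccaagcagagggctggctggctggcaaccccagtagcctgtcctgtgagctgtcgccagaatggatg
These 4 windows held 2, 2, 4 and 2 E-boxes. An E-box was present in 16 of the 16 slow sarcomere promoters in the table, in 8 of 11 fast sarcomere promoters, and in 72.1% of all 27025 promoters. The MCAT motif (CATTCC, either strand), bound by TEAD factors, was found in *Myh7* and *Tnnc1* among the 4, in 3 of 16 slow promoters, in 5 of 11 fast promoters and in 14.6% of all. The MEF2 motif was in none of the 4 windows, in 3 of 16 slow promoters, in 3 of 11 fast promoters and in 3.26% of all. The SOX motif AACAAT, searched on both strands, was found 2 times in the *Myh7* window, in 3 of 16 slow promoters, in 1 of 11 fast promoters and in 10.9% of all promoters. Among the 10911 promoters of genes tested below, the shares were 63.6% for the E-box, 12.2% for MCAT, 1.86% for MEF2 and 5.84% for SOX. A match describes the letters of this window only.

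The globin split was all or none. *Hbb-bt* (chr7:103812524-103813923) had 2766 counts in WT 1, 2457 in WT 2 and 1908 in KO 2, and 0 in WT 3, KO 1 and KO 3. *Hbb-b2* had 0 counts in WT 1, WT 2 and KO 2, and 534, 1514 and 949 in WT 3, KO 1 and KO 3. No library had reads assigned to both genes. Whether the animals differed in the genes they carried was not tested. A count of 0 allows up to 3 counts, which is between 0.0320% and 0.162% of *Hbb-bs* plus the gene that had counts in these libraries. In each library the one of *Hbb-bt* and *Hbb-b2* that had counts made up a similar share of itself plus *Hbb-bs*. It ran from 28.8% (95% exact binomial interval 26.7 to 30.9) in WT 3 to 33.3% (31.9 to 34.6) in KO 1. These limits cover counting error only. *Hbb-bs* had 6600, 5890 and 4109 counts in the Hbb-bt-rich libraries and 1321, 3039 and 2126 in the others, while *Hbb-b1*, the usual partner of *Hbb-b2*, had 6 to 9 counts in every library.

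**Figure D1:**
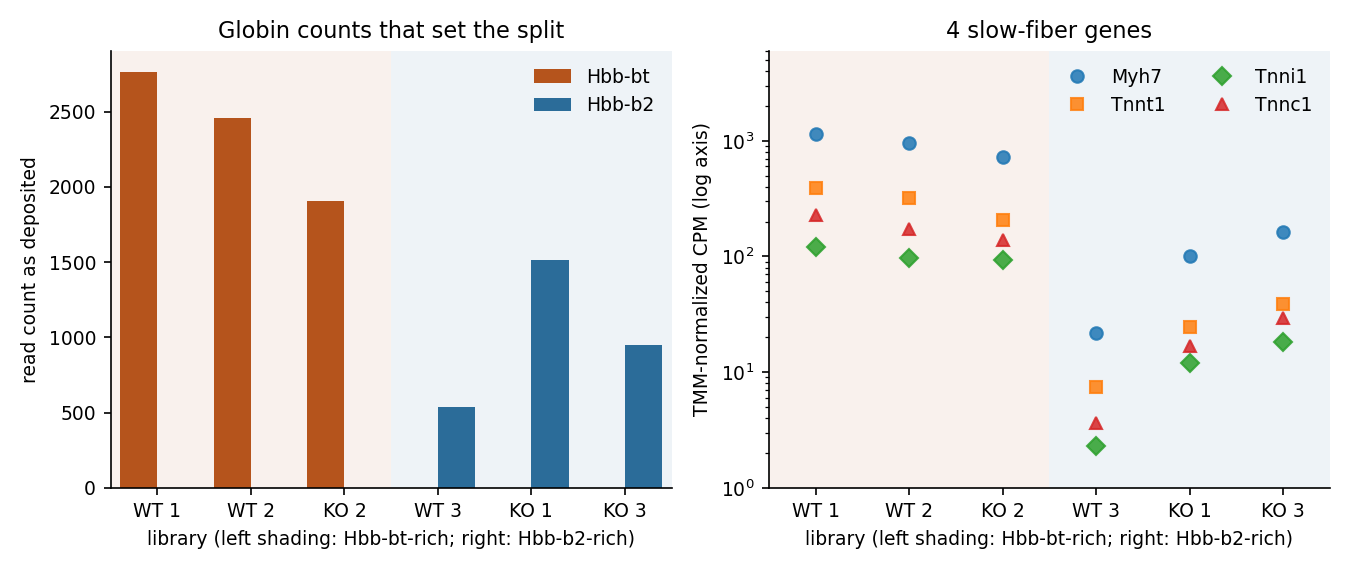
Left, bars give the deposited read counts of Hbb-bt and Hbb-b2 in each of the 6 libraries. Right, points give TMM-normalized CPM of Myh7, Tnnt1, Tnni1 and Tnnc1 on a log axis; each gene is higher in all 3 Hbb-bt-rich libraries (left shading) than in any Hbb-b2-rich library (right shading), and WT 3 is lowest for all 4.

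The amount of globin transcript also moved with the split. The alpha-globin gene *Hba-a1* stood at 101, 107 and 76.4 CPM in WT 1, WT 2 and KO 2 and at 21.9, 55.2 and 39.8 CPM in WT 3, KO 1 and KO 3, without overlap. *Alas2*, the erythroid enzyme that starts heme synthesis, was also without overlap, with a log2 difference of 1.62. Only 6 of 14 erythroid genes passed the filter on low counts. The part of blood content in the muscle differences was not tested.

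Around *Hbb-bt*, 90 genes within 5 Mb were tested, globin genes left out. Of these genes 0 passed the test described below, 4 were higher and 8 lower without overlap between the sets, and their median log2 difference was −0.02. Over all genes 0.768% were called higher and 0.101% lower, and 10.4% were higher and 8.17% lower without overlap. The 0 calls and the 8 lower genes were near these shares, and the 4 higher genes were a smaller share than 10.4%. The genes called across the whole table lay on every autosome and on the X chromosome. The labels give C57BL/6 for all 6 animals, and the sources name more than 1 *Sirt6* flox stock. Genetic background, litter, dissection and blood content cannot be told apart from the split with these files.

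Slow-fiber genes are described first, without a test, because the split was proposed with their values in view. *Myh7*, the slow myosin heavy chain, had 1138, 958 and 720 CPM in WT 1, WT 2 and KO 2 and 21.7, 100 and 163 CPM in WT 3, KO 1 and KO 3. The means were 939 ± 209 and 94.9 ± 70.7 CPM (SD, n = 3 each), and the log2 difference with the label as covariate was 4.01 (SE 0.75). The sets did not overlap, and the lowest library, WT 3, was labelled WT.

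The 3 slow troponins, which place calcium control on the thin filament, had the same order of libraries. *Tnnt1* had 388, 318 and 205 CPM against 7.49, 24.7 and 38.7 CPM, a log2 difference of 4.09 (SE 0.67). *Tnnc1* had 227, 173 and 139 CPM against 3.61, 16.7 and 29.3 CPM, a log2 difference of 4.11 (SE 0.75), the largest of the list. *Tnni1* followed with 120, 96.5 and 94.0 CPM against 2.29, 12.0 and 18.2 CPM. For all 3, KO 2 was the lowest of its set and WT 3 the lowest of all 6.

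The slow myosin light chains and membrane proteins were higher as well. *Myl2*, the regulatory light chain, differed by 4.02 (SE 0.57) on the log2 scale and *Myl3*, the essential light chain, by 3.93 (SE 0.61). The calcium pump gene *Atp2a2* had 1023, 801 and 557 CPM against 80.1, 166 and 180 CPM, and the calcium store protein gene *Casq2* differed by 1.88 (SE 0.23). The exceptions were 2 small regulators of the calcium pump at low levels. Phospholamban (*Pln*) differed by 1.27 (SE 0.69) with overlapping sets, and sarcolipin (*Sln*) by −0.82 (SE 0.29), also with overlap.

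Structural and stretch-linked members were also higher in the Hbb-bt-rich libraries. *Mybpc1*, the slow myosin-binding protein, had 1995, 2634 and 1682 CPM against 523, 624 and 571 CPM, and *Actn2*, an alpha-actinin of the Z-disc, had 1269, 1572 and 1187 CPM against 488, 337 and 474 CPM. *Csrp3*, the muscle LIM protein, differed by 2.28 (SE 0.13) and *Ankrd2*, an ankyrin-repeat protein of stretched slow muscle, by 2.77 (SE 0.32). Over the 18 genes of the slow sarcomere list the median log2 difference was 2.90, 17 were positive, and 16 did not overlap between the sets. Over all 13801 genes tested, 10.4% were higher and 8.17% lower in the Hbb-bt-rich set without overlap, and the median was −0.02. In bulk tissue, fewer slow fibers and less slow transcript per fiber cannot be told apart.

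The slow-gene difference had a larger fitted value within WT than within KO. Within WT, where WT 1 and WT 2 stand against WT 3, the median of the list was 3.66, and within KO, where KO 2 stands against KO 1 and KO 3, it was 2.39. The difference was larger within WT for 15 of the 18 genes, with *Myh7* at 5.59 within WT and 2.45 within KO. WT 3 was the lowest of the 6 libraries for 14 genes, and KO 2 lay below both WT 1 and WT 2 for 16. A test of the difference between labels (the product of split and label, 2 residual degrees of freedom) called 2 of 13801 genes (0.0145%), neither of them in the slow list, and 1705 had an unadjusted p under 0.05 in that test.

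**Figure D2:**
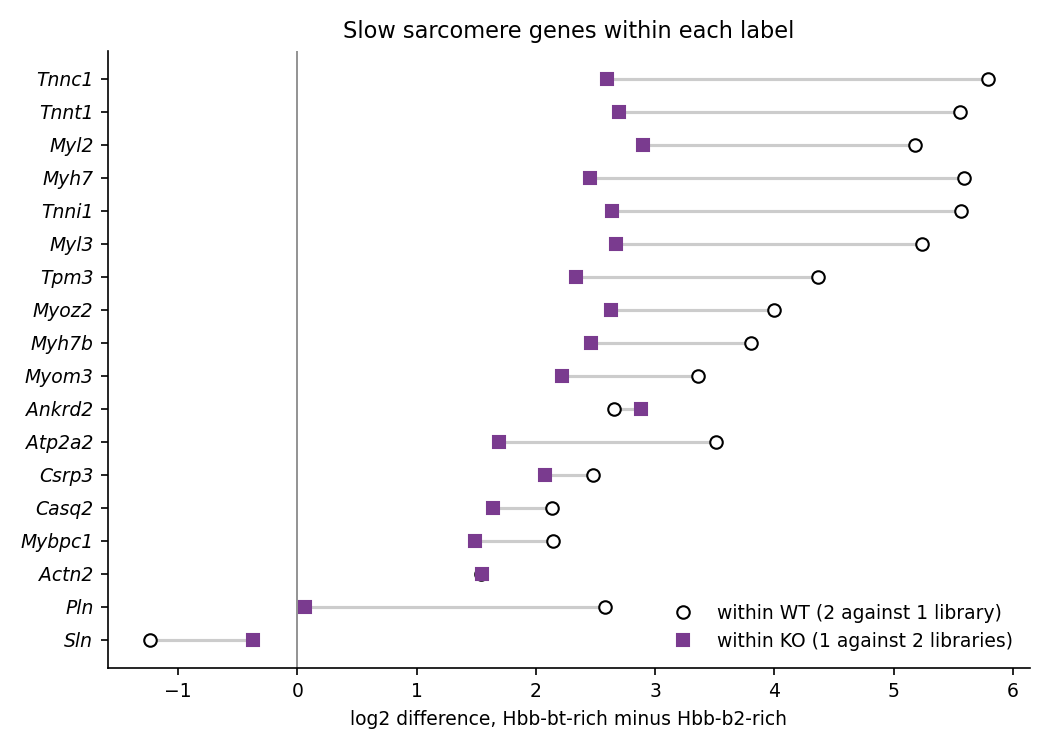
Log2 difference between the Hbb-bt-rich and Hbb-b2-rich libraries for each of the 18 slow sarcomere genes, computed within the WT label (open circles) and within the KO label (squares). All genes but Sln lie above 0 within both labels, and the circles lie to the right of the squares for 15 genes.

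Myosin heavy chain make-up gives the same contrast per unit length. Values are shares of the summed TPM (length-scaled transcript level) of *Myh7*, *Myh2*, *Myh1* and *Myh4*. *Myh7* took 1.70%, 1.34% and 0.809% in WT 1, WT 2 and KO 2 and 0.0218%, 0.106% and 0.153% in WT 3, KO 1 and KO 3. *Myh2* (type IIa) took 5.55%, 7.28% and 3.01% against 1.25%, 1.39% and 1.47%. *Myh4* (type IIb) was the main isoform everywhere, with 79.6%, 77.1% and 91.1% against 96.3%, 95.3% and 95.5%, and KO 2 lay between WT 1 and WT 2 and the Hbb-b2-rich libraries. The difference thus ran through all 4 genes, with the slowest isoform changing most.

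**Figure D3:**
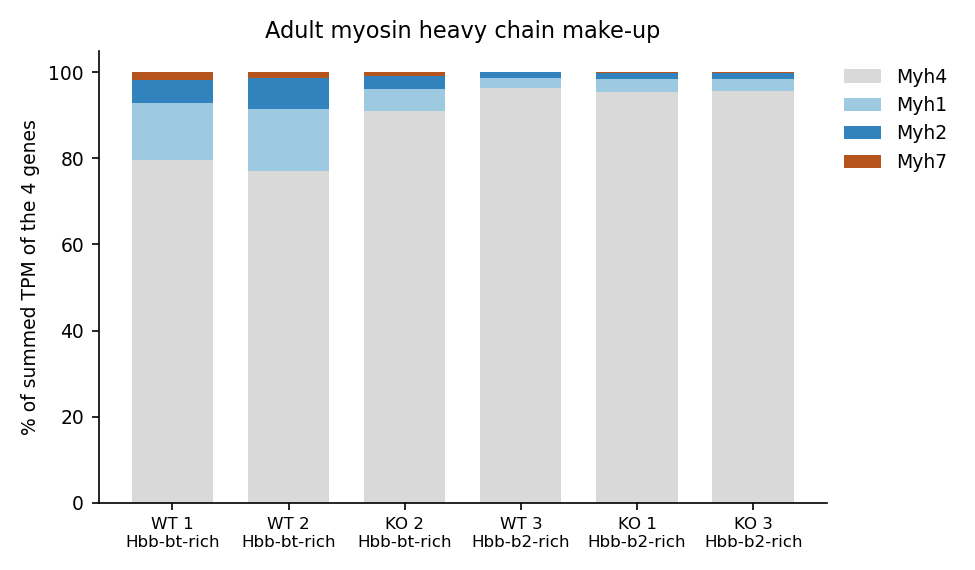
Stacked bars give the share (%) of each adult myosin heavy chain gene in the summed TPM of Myh7, Myh2, Myh1 and Myh4, 1 bar per library. Myh4 takes 77.1% to 91.1% in the 3 Hbb-bt-rich libraries and 95.3% to 96.3% in the 3 Hbb-b2-rich libraries.

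Of the 16 genes of the fast sarcomere, 0 passed the test in either direction. The fast myosin genes are named because they make up the shares above. The 2 fast genes above 0 were *Myh2*, at 3732, 5223 and 2694 CPM against 1256, 1313 and 1571 CPM, and *Myh1*, at 8767, 10153 and 4505 CPM against 2408, 2961 and 3000 CPM. Neither overlapped between the sets, with log2 differences of 1.37 (SE 0.26) and 1.28 (SE 0.32). The other 14 lay below 0, from −0.71 for *Actn3*, the fast alpha-actinin, to −0.26. Of the 16 genes of the list, 7 were lower and 2 (12.5%) higher without overlap, against 8.17% and 10.4% of all genes. *Myh4* had 53097, 54839 and 80840 CPM against 95958, 89370 and 101492 CPM. The median of the list was −0.37, and it was −0.11 without WT 3, −0.64 without KO 2 and −0.06 in limma fits on quantile-normalized FPKM. The cardiac myosin gene *Myh6*, singled out after its values were seen and a close copy of *Myh7* whose reads may be shared with it, had a log2 difference of 3.84 (SE 0.67).

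Across all genes, edgeR's quasi-likelihood test with the label as covariate called 106 genes higher (0.768%) and 14 lower (0.101%) in the Hbb-bt-rich libraries at a Benjamini-Hochberg adjusted p under 0.05. Genes that vary with slow fibers are not independent of how the split was found, so these calls describe which genes went with it. Of the 106 genes, 12 were in the slow sarcomere list, 1 was *Hbb-bt*, and 93 were neither. Of the 14 lower genes, 1 was *Hbb-b2*. The 2 globin genes defined the sets and the slow genes were in view when the split was proposed, so their calls are no test. Of the 93 genes, 87 did not overlap between the sets, and all 93 were positive within WT and within KO. The other 13 lower genes were all negative within both labels. The number of calls depended on single libraries: without WT 3 the test called 22 higher and 2 lower, without WT 1 it called 39 and 4, without KO 1 it called 55 and 10, without KO 3 it called 128 and 28, and without KO 2 it called 283 and 144. Of the 33 called genes named here that are neither slow sarcomere nor globin genes, 7 passed the test without WT 3, 28 passed without KO 2, and 5 passed with any 1 library left out: *Atp1b1*, *Esrrg*, *Fndc5*, *Fxyd6* and *Grb14*.

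Among transcriptional regulators of fiber type, 2 of 36 genes were called higher and 0 lower. *Esrrg*, an estrogen-related receptor that drives oxidative and type I fiber genes, had 48.2, 56.3 and 46.1 CPM against 18.1, 14.0 and 14.6 CPM, a log2 difference of 1.61 (SE 0.11; edgeR adjusted p = 0.00404). The values within each set lay close together, and KO 2 was slightly below WT 1. *Vgll2*, a cofactor of TEAD factors, had 66.9, 100 and 46.4 CPM against 19.3, 9.37 and 17.5 CPM (edgeR adjusted p = 0.0331), and did not pass without WT 3 or without KO 2.

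The other regulators did not pass the test. Without overlap 7 of the 36 were higher (19.4%), the called pair included, and 5 were lower, against 10.4% and 8.17% of all genes. Besides *Ppara* and *Sox6*, these were *Rcan1* (log2 difference 1.12), *Prox1* (0.98), *Ppargc1b* (0.73) and *Esrra* (0.39) above 0, and *Rxrg* (−0.57), *Ppp3ca* (−0.43), *Nfix* (−0.30) and *Nfatc2* (−0.29) below it. *Ppara*, *Ppargc1a* and *Sox6* were singled out after their values were seen. *Ppara*, the receptor that turns on fatty acid oxidation, had 112, 171 and 32.9 CPM against 23.7, 6.89 and 15.1 CPM, without overlap. *Ppargc1a*, the coactivator of mitochondrial biogenesis, overlapped between the sets, with 764, 1703 and 170 CPM against 515, 45.6 and 92.2 CPM. *Sox6*, a repressor of slow genes, had 142, 136 and 131 CPM against 194, 172 and 146 CPM, a log2 difference of −0.38 (SE 0.11; edgeR adjusted p = 0.167). *Sox6* was thus lower in every Hbb-bt-rich library, in the opposite direction to *Myh7*. The median of the 36 regulators was 0.03.

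Of 77 nuclear genes of oxidative phosphorylation, 0 were called in either direction and 72 were above 0, with a median log2 difference of 0.31. Without overlap 45 of the 77 (58.4%) were higher, against 10.4% of all genes. *Sdhb* and *Cox7a1* were singled out after their values were seen. *Sdhb*, the iron-sulfur subunit of succinate dehydrogenase, had the largest difference of them, with 496, 574 and 439 CPM against 305, 264 and 314 CPM. *Cox7a1*, the muscle form of a cytochrome c oxidase subunit, had 161, 162 and 138 CPM against 111, 85.1 and 97.0 CPM. The sets did not overlap for either gene, and the log2 differences were 0.71 (SE 0.13) and 0.58 (SE 0.10).

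Of 29 genes of fatty acid and lactate use, 3 were called higher and 0 lower, with a median of 0.52. Without overlap 21 of the 29 (72.4%) were higher and 1 lower, against 10.4% and 8.17% of all genes. *Mb*, which encodes the oxygen carrier myoglobin, had 4071, 4861 and 2579 CPM against 850, 619 and 861 CPM, a log2 difference of 2.10 (SE 0.22; edgeR adjusted p = 0.0131). *Ldhb*, the lactate dehydrogenase subunit of oxidative tissues, had 335, 381 and 276 CPM against 36.3, 44.5 and 76.9 CPM, a log2 difference of 2.74 (SE 0.32; edgeR adjusted p = 0.0174). *Lpl*, which frees fatty acids from lipoproteins, had 1607, 1732 and 608 CPM against 477, 222 and 268 CPM (edgeR adjusted p = 0.0136), and KO 2 was much nearer to WT 3 than to WT 1 or WT 2. None of the 3 passed the test without WT 3.

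Of 22 genes of glycolysis and glycogen, 1 was called higher, *Gbe1*, the glycogen branching enzyme, with a log2 difference of 0.99 (SE 0.14; edgeR adjusted p = 0.0331). The median of the list was −0.24, and 0.09 without WT 3. Without overlap 3 of the 22 were higher and 4 lower, against 10.4% and 8.17% of all genes. The higher genes were *Gbe1*, *Pgm1* (log2 difference 0.89) and *Gys1* (0.38). The lower genes were *Phka1* and *Phkg1*, subunits of phosphorylase kinase, *Pgm2* and *Gpd1*, and none of the 4 passed the test.

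**Figure D4:**
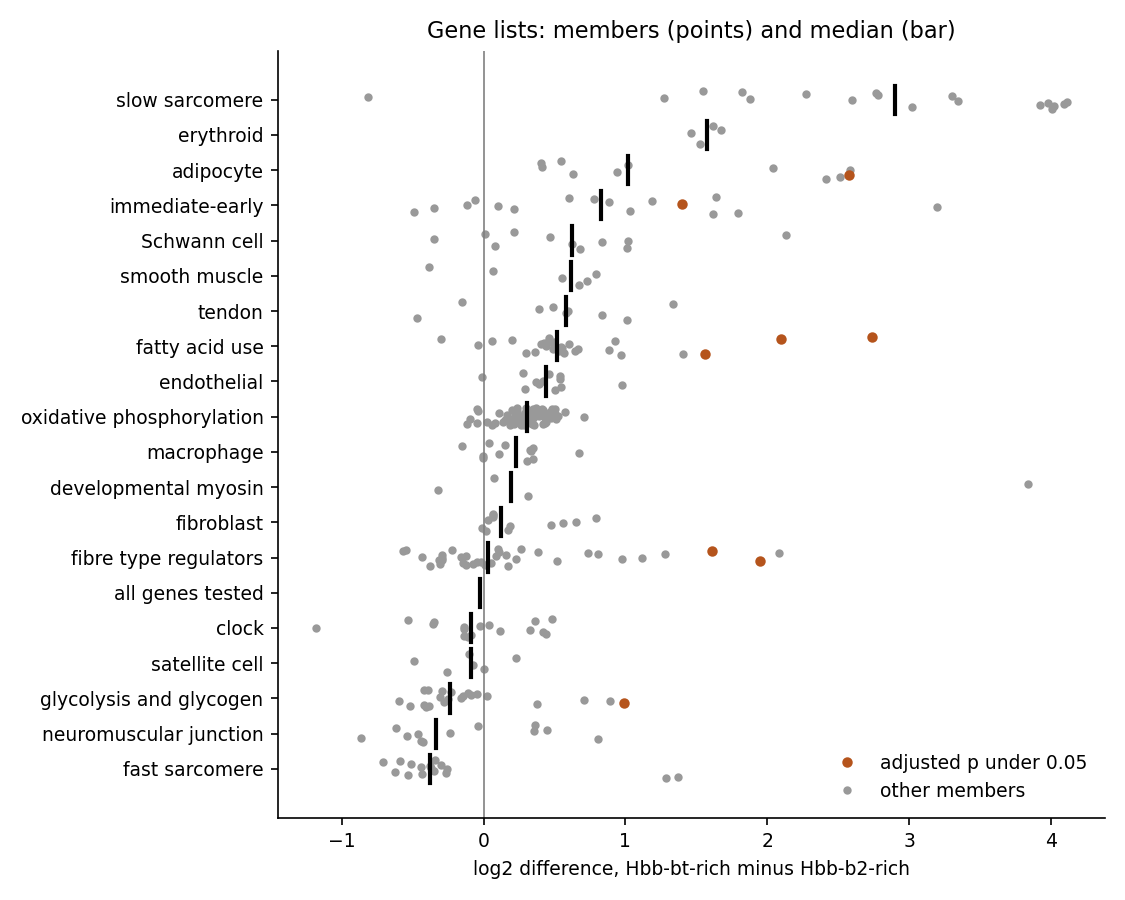
Each point is the log2 difference (Hbb-bt-rich minus Hbb-b2-rich, label as covariate) of 1 gene, by gene list, and black bars are list medians; colored points had an edgeR adjusted p under 0.05, slow sarcomere genes are not colored because no test is given for them, and Hbb-bt and Hbb-b2 lie outside the axis. The slow sarcomere median is 2.90, the oxidative phosphorylation median 0.31 and the fast sarcomere median −0.37.

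The largest differences outside the slow sarcomere and globin genes, chosen by rule among called genes without overlap, included 10 higher and 10 lower genes. *Dach2*, a transcriptional cofactor linked to Eya proteins, had 5.75, 8.06 and 2.41 CPM against 0.436, 0.342 and 0.309 CPM, a log2 difference of 3.42 (SE 0.34; edgeR adjusted p = 0.0115). *Bdh1*, the mitochondrial enzyme that oxidizes the ketone body beta-hydroxybutyrate, had 82.8, 95.1 and 51.2 CPM against 8.83, 5.61 and 12.2 CPM (log2 difference 2.92). Both were low in all Hbb-b2-rich libraries, and KO 2 was below WT 1 and WT 2.

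*Fxyd6*, a regulator of the sodium pump, was among the most even, with 70.5, 84.8 and 69.6 CPM against 10.4, 15.5 and 15.5 CPM, a log2 difference of 2.52 (SE 0.18; edgeR adjusted p = 0.00407). *Atp1b1*, which encodes the beta subunit of the same pump and was singled out after its values were seen, had 255, 284 and 169 CPM against 71.0, 49.8 and 54.3 CPM (log2 difference 1.81, SE 0.11). Both stayed past the threshold with any 1 library left out. The others of the 10 were *Cyfip2*, *Lrrc52*, *Gm5532*, *Lrrn1*, *Cidec* and *Gdf1*, besides *Ldhb*, with log2 differences from 2.44 for *Gdf1* to 2.98 for *Cyfip2*. *Gdf1* shares its locus with another gene, so that reads may be divided between them.

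Further called genes singled out after their values were seen were *Fndc5*, the precursor of irisin, *Grb14*, an inhibitor of insulin receptor signalling, and *Pdlim1*, a PDZ and LIM protein of the cytoskeleton. *Fndc5* had 92.7, 110 and 62.9 CPM against 31.4, 23.1 and 21.0 CPM, a log2 difference of 1.60 (SE 0.12; edgeR adjusted p = 0.00407). *Grb14* had 25.4, 20.6 and 23.1 CPM against 6.93, 4.36 and 5.48 CPM, and KO 2 lay between WT 1 and WT 2. *Pdlim1* had 67.4, 81.6 and 38.7 CPM against 13.4, 13.9 and 12.4 CPM.

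Genes lower in the Hbb-bt-rich libraries changed by less. *Exoc7*, a subunit of the exocyst that tethers secretory vesicles, had 29.6, 43.7 and 35.7 CPM against 91.7, 87.8 and 92.1 CPM, a log2 difference of −1.33 (SE 0.16; edgeR adjusted p = 0.0174). *Wnt4*, a secreted Wnt ligand, had 10.3, 10.1 and 21.1 CPM against 25.4, 39.4 and 31.4 CPM. *Fgfr1*, a fibroblast growth factor receptor, had 64.7, 79.2 and 77.9 CPM against 134, 171 and 130 CPM. *Exoc7* was nearly level within the Hbb-b2-rich set, while *Wnt4* in KO 2 came close to WT 3.

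*Acvr2a*, a receptor for activin and myostatin, had 33.5, 30.2 and 37.4 CPM against 54.4, 58.8 and 55.4 CPM, a log2 difference of −0.69 (SE 0.10; edgeR adjusted p = 0.0331). *Sort1*, the sorting receptor sortilin, had 106, 100 and 135 CPM against 198, 203 and 202 CPM. The others by rule were *Ccl25*, *Zfp467*, *Dopey2*, *5430431A17Rik* and *Pakap*. *Pakap* had the largest drop, −2.96 (SE 0.41), from 19.7, 3.90 and 5.77 CPM in WT 3, KO 1 and KO 3 to 1.24 to 1.44 CPM, but it overlaps *Akap2*, named after its values were seen, which was called higher (log2 difference 1.19, SE 0.15), and reads may be divided between the 2 annotations. None of the 10 lower genes named by rule passed the test without WT 3.

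Markers of other cells were examined in the same fit. Of 11 adipocyte genes tested, 1 was called higher, *Cidec*, a lipid droplet protein, and 11 were above 0, with a median of 1.02, or 1.87 without KO 1 and 2.81 without KO 2. Without overlap 3 of the 11 were higher and 0 lower, against 10.4% and 8.17% of all genes. The summed level of the 11 genes was 225 to 349 CPM in the Hbb-bt-rich libraries and 153 to 231 CPM in the others. *Adipoq*, which encodes the fat hormone adiponectin and was singled out after its values were seen, had 7.96, 9.25 and 19.0 CPM against 0.768, 4.17 and 8.33 CPM and overlapped. *Cidec* was highest in KO 2 at 12.4 CPM, and WT 3 was lowest for both.

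Of 11 Schwann cell genes 0 were called, with a median of 0.62 and summed levels of 45.8 to 85.2 CPM against 32.0 to 44.3 CPM. Endothelial genes (12 tested, 0 called) had a median of 0.44 and sums of 300 to 461 CPM against 230 to 301 CPM. The endothelial sum was 300 CPM in KO 2 and 301 CPM in KO 3. Smooth muscle genes (6 tested, 0 called) had a median of 0.61. Without overlap 3 Schwann cell, 5 endothelial and 2 smooth muscle genes were higher and 0 lower, against 10.4% and 8.17% of all genes. The medians of these lists were 1.07, 0.90 and 0.90 within WT, and 0.16, 0.13 and 0.14 within KO. Macrophage (12 tested), fibroblast (12) and satellite cell (6) genes had medians of 0.23, 0.12 and −0.09 with 0 calls each. Tendon (9) and neuromuscular junction (12) genes had medians of 0.58 and −0.33 with 0 calls. In that order, 0, 1, 0, 1 and 1 genes of these lists were higher without overlap, and 0 lower. The part of these cells in the muscle differences was not tested. The skeletal muscle markers *Ckm*, *Acta1*, *Des*, *Ttn* and *Myh4* were abundant in all 6 libraries.

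The split also bears on how WT and KO compare, because each label holds 2 libraries of one set and 1 of the other. With the label alone, the slow sarcomere list had a median KO minus WT log2 difference of −1.13, and 17 of 18 genes were below 0. With the split as a second term the median was 0.21, and 10 genes were above 0 and 8 below. *Tnni1* went from −0.82 to 1.12 (SE 0.66 with the split term) and *Myh7* from −1.11 to 1.01 (SE 0.77). The sign of these fitted values thus depended on the term, and the SEs were large beside them. The term also averages over opposite orders: KO 2 lay below WT 1 and WT 2 for 16 of the 18 genes, whereas WT 3 was the lowest library for 14. No reversal of the label difference can be read from these values. *Csrp3* and *Ankrd2* stayed below 0 in both fits, at −0.96 and −1.50 with the split term. No test of the label is given for slow genes in this fit, because the split was proposed from the values of those genes and takes up their variance. Over all 13801 genes tested, the label called 2504 with the split term and 2242 without, of which 2045 were shared. Of the 120 genes called for the split, 39 were also called for the label in the fit with both terms.

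**Figure D5:**
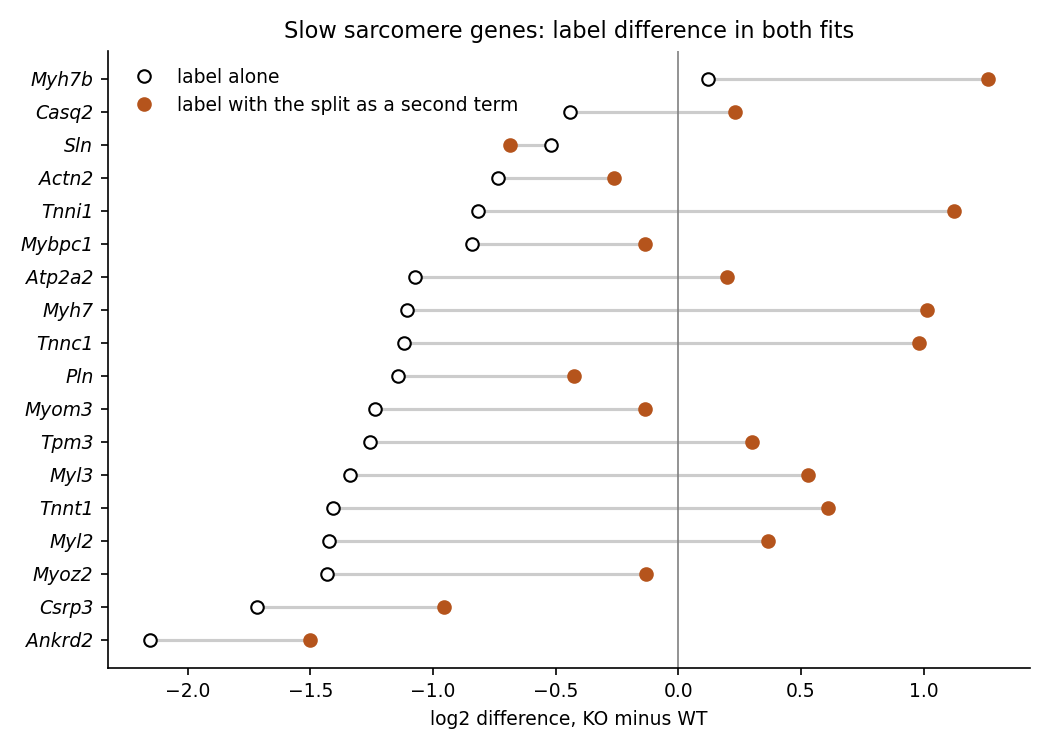
KO minus WT log2 difference of each slow sarcomere gene in the fit with the label alone (open circles) and in the fit with the label and the globin split (filled circles). 17 of 18 open circles lie below 0, and 10 of 18 filled circles lie above it.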

How the data were processed

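Gastrocnemius RNA of 6 mice was sequenced by the authors, 1 library per label replicate. The submitters' processing notes name HISAT2 2.1.0, Bowtie2 2.3.4.1, StringTie 2.1.3b and mm10, whereas the reporting summary names STAR. The methods and the labels also name different TruSeq kits and the sources different flox stocks. The read counts that the authors deposited are whole numbers per gene without normalization. Deposited FPKM, divided by gene length and library size, served 2 alternatives. Deposited TPM, which sum to the same total in every library, served the myosin shares. The authors' own fold changes and p-values were not used.

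Library totals lay between 44845763 and 63016899 counts, and TMM factors between 0.909 and 1.11. Genes passing filterByExpr by label (13801 of 24532) were fitted in edgeR 4.0.16 (R 4.3.3) with label and split as terms, which leaves 3 residual degrees of freedom, and adjusted by Benjamini-Hochberg at 0.05. CPM values are TMM-normalized, and SEs were derived from the F statistic. The p-values measure the spread between these libraries. Alternatives used DESeq2 1.42.0 and limma 3.58.1, other filters, thinning and each library left out. The fit was tested on simulated data.

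The split, the gene lists and the rules were chosen with earlier results of these data known. Named genes were the globin genes, the slow sarcomere list, *Sirt6*, the 10 largest called differences in each direction without overlap and with a mean of at least 1 CPM, and up to 4 called members of each other list; other names, marked or in lists described by their members, were chosen after their values were seen. Whether the replicate numbers pair the libraries is not known. Deviations of same-numbered WT and KO libraries correlated at −0.11, 0.26 and 0.16. Correlations of unlike-numbered libraries ran from −0.34 (WT 3 with KO 2) to 0.21 (WT 3 with KO 1), so these values cannot decide it. Of the genes, 99.7% matched RefSeq coordinates on GRCm38.p6.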

Additional observations from a re-analysis of the deposited data

Results flagged for a closer look

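For *Rps27*, a ribosomal protein gene, the split differed between the labels: the product of split and label was −6.15 on the log2 scale (SE 0.18; edgeR quasi-likelihood test, Benjamini-Hochberg adjusted p = 0.00108). The gene had 91.2, 91.8 and 1.33 CPM in WT 1 to 3 and 105, 102 and 106 CPM in KO 1 to 3, so that WT 3 alone was low. For *Eif3j1*, a translation initiation factor gene, the product was 4.22 (SE 0.27; edgeR adjusted p = 0.0385), with 6.78, 5.85 and 55.3 CPM in WT 1 to 3 and 14.5, 27.2 and 11.1 CPM in KO 1 to 3. WT 3 was the highest library for this gene. Both genes have near-identical copies in the mouse genome, so the assignment of their reads is uncertain. No group held the 4 samples that a test for outlying samples needs.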

How the results depend on the processing

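The fit with label and split gave 106 genes higher and 14 lower. DESeq2's Wald test gave 683 and 326, limma on quantile-normalized log2(FPKM + 1) gave 67 and 8, limma with a pseudocount of 0.1 gave 70 higher, and leaving the label out gave 41 and 3. Leaving out each library in turn gave 22 to 283 higher and 2 to 144 lower. With the replicate block the counts were 0 and 0, with 701 genes at an unadjusted p under 0.05, and the slow sarcomere median was 3.64. That fit leaves fewer residual degrees of freedom than the main fit, and whether the replicate numbers pair the libraries is not known. The slow sarcomere median was 2.39 to 3.66 with each library left out and 3.66 within the WT libraries alone. The product of split and label called 1 gene without the filter on low counts and 193 with DESeq2. DESeq2 size factors, no filter, at least 10 counts in every library and thinning to the smallest library kept the count of higher genes within 1.5 times, as did removing the GC trend (112 and 15), which was chosen after seeing the data. No value changed sign past its threshold. Each of the 106 called genes outside the slow and globin lists kept its direction in every alternative that tested it. Among genes named with a test, 588 combinations of gene and alternative kept their side of the threshold, 151 lost it and 25 gained it; the causes were not tested.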

Other observations

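Genes that respond quickly to activity or handling were uneven across the split. Of 16 immediate-early genes, 1 was called higher, *Atf3*, a stress-induced transcription factor, and the median log2 difference was 0.83, or 0.36 without WT 3. Without overlap 3 of the 16 were higher and 0 lower, against 10.4% and 8.17% of all genes. *Atf3* had 58.3, 44.4 and 7.11 CPM in WT 1, WT 2 and KO 2 and 16.3, 3.73 and 2.83 CPM in WT 3, KO 1 and KO 3, and so overlapped between the sets while differing within each label. *Csrnp1* and *Rhou*, both singled out after their values were seen, had the same shape, with *Csrnp1* at 20.6, 27.7 and 4.87 CPM against 5.34, 1.69 and 1.38 CPM. These 3 genes were called for the label as well, with KO minus WT log2 differences of −2.59, −2.07 and −1.48. Their adjusted p-values in edgeR's quasi-likelihood test were 0.0043, 0.00621 and 0.0052. The same test called 6 of the 16 immediate-early genes for the label, and 2504 of all 13801 genes.

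Of 17 clock genes, 0 were called, with a median of −0.09. *Nr1d1*, the repressor REV-ERB alpha, singled out after its values were seen, stood apart in size, at 29.8, 26.0 and 44.0 CPM against 63.8, 74.5 and 124 CPM without overlap (log2 difference −1.18, SE 0.20; edgeR adjusted p = 0.0506), while *Per1* and *Dbp* overlapped between the sets.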
